A study of Homo sapiens with 11 samples.

Results

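HCT-116 is an established human colorectal carcinoma line that grows as an epithelial sheet. RNA sequencing compared HCT-116 cells exposed for 24 h to phenylacetaldehyde (PAA), a small aromatic aldehyde, with HCT-116 cells in medium holding 0.1% DMSO, the vehicle. Of the 11 libraries of the series, the 6 of this line were used, 3 with PAA and 3 with DMSO, each group numbered 1 to 3. Both groups are the same unmodified line, so the aldehyde and its vehicle are the only difference that the labels give. The sources used here give neither the concentration of PAA nor the length of the vehicle exposure. Whether the replicates are separate cultures is not stated, so the p-values speak only for the spread among these libraries, which may be technical. As a model, the data hold a single line, a single exposure and a single time. Values are FPKM (fragments per transcript kilobase, scaled to library depth), and 0.0001 in the tables was read as 0. Of 60612 genes listed, the 12669 that reached an FPKM of 1 in 2 or more of the 6 libraries were tested. A gene can pass this filter through 1 group alone, so near an FPKM of 1 being tested can itself depend on the change.

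Aldehydes are electrophiles that bond with the thiol and amino groups of proteins. Cells meet them with reductases, dehydrogenases and glutathione, many of them under the transcription factor NRF2, which its inhibitor KEAP1 releases when its cysteines are modified. Damaged proteins and amino acid shortage are sensed by kinases of eIF2α, which slow translation and raise ATF4, a transcription factor that switches on amino acid transporters and further stress genes. In colon epithelium, Wnt, Notch and BMP signals set the balance between growing and maturing cells.

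Before the results, the make-up of the libraries is given. Estimated depth was 13600000 to 22700000 fragments per library, and 11770 to 12133 genes reached an FPKM of 1. Mitochondrial transcripts made up 38.2% to 40.2% of all FPKM with DMSO and 31.2% to 31.4% with PAA, so the groups did not overlap. Across genes, Pearson's r of log2(FPKM + 1) lay between 0.973 and 0.978 for libraries of the same group and between 0.938 and 0.946 for libraries of different groups. EPCAM, of the epithelial surface, was at 93.1 ± 1.3 in the vehicle group and 92.2 ± 4.4 in the PAA group (mean ± SD, n = 3 each, as in all such pairs below). It is 1 of 15 markers of the epithelial line that were looked up. Of these, 9 were tested, with 2 higher, 3 lower and 4 not called (55.6% called, against 47.6% over all genes tested). Of 26 markers of immune, blood, stromal, endothelial, nerve and muscle cells, 22 were too low to test, and COL1A1 and ACTA2 were tested and not called. The other 2 rose: MAP2, a microtubule protein of neurons that some epithelia also express, from 0.549 ± 0.082 to 4.63 ± 0.62, and CD68, a lysosomal protein of macrophages and other cells, from 2.36 ± 0.66 to 7.44 ± 0.49. In bulk RNA, a change in every cell and a change in the share of cells that express a gene cannot be told apart.

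One pair of libraries carried transcripts of another tissue. All 18 genes of digestive enzymes and other proteins of the exocrine pancreas, looked up after the pattern was seen, were higher in DMSO 3 and PAA 2 than in each of the other 4 libraries. PNLIP, pancreatic lipase, was listed at 0 in 4 libraries, at 36.7 in DMSO 3 and at 70.5 in PAA 2. PRSS1, a trypsinogen, stood at 25.2 and 43.1 in that pair and at 0.038 or less elsewhere. The insulin gene INS was at 0.652 and 3.21 in the same pair and listed at 0 in the rest. Summed over the 18 genes, FPKM came to 203.5 in DMSO 3 and 399.4 in PAA 2, or 0.0644% and 0.134% of all FPKM, against 0.553 to 1.14 elsewhere. None of the 18 was called, with adjusted p-values from 0.614 to 0.972 (limma). The pair is 1 library from each group, and without both of them 4288 genes were called, 2010 higher and 2278 lower, of which 4040 were also called with all 6. Genes named below whose call differs without the pair are given with that value.

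**Figure D1:**
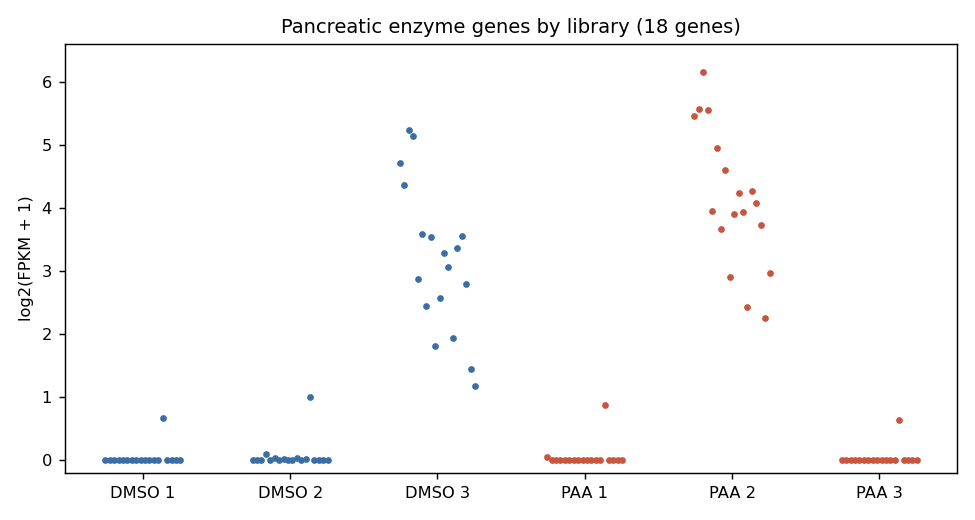
log2(FPKM + 1) of 18 pancreatic enzyme genes in each HCT-116 library, 1 point per gene, blue for DMSO and red for PAA. The points lie high in DMSO 3 and PAA 2, which sum to 203.5 and 399.4 FPKM, and near 0 in the other 4 libraries except for CEL.

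The first question was how much of the transcriptome differed between PAA and vehicle. By limma on log2(FPKM + 1) with Benjamini-Hochberg adjustment over all tested genes, 6033 of 12669 genes (47.6%) were called at an adjusted p of 0.05, 2823 higher (22.3%) and 3210 lower (25.3%). Most of these changes were small, since 63.9% of the calls were under 0.5 on the log2 scale and the median absolute change over all genes was 0.24. A fold of 2 or more was reached by 402 called genes (3.17% of those tested), 179 higher (1.41%) and 223 lower (1.76%). The PAA libraries all lay above the DMSO libraries for 3539 genes (27.9%) and all below for 3979 (31.4%). The share of calls that were higher, 46.8%, became 62.3% after scaling to a common total and 38.1% if that total left out mitochondrial genes. The median change over all genes, -0.01 on the log2 scale, became 0.08 and -0.06. The genes called with a fold of 2 or more became 238 higher and 169 lower after scaling to a common total, and 154 and 260 if mitochondrial genes were left out of it. Directions of small changes, and the balance of higher to lower calls at a fold of 2, therefore depend on the scaling.

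**Figure D2:**
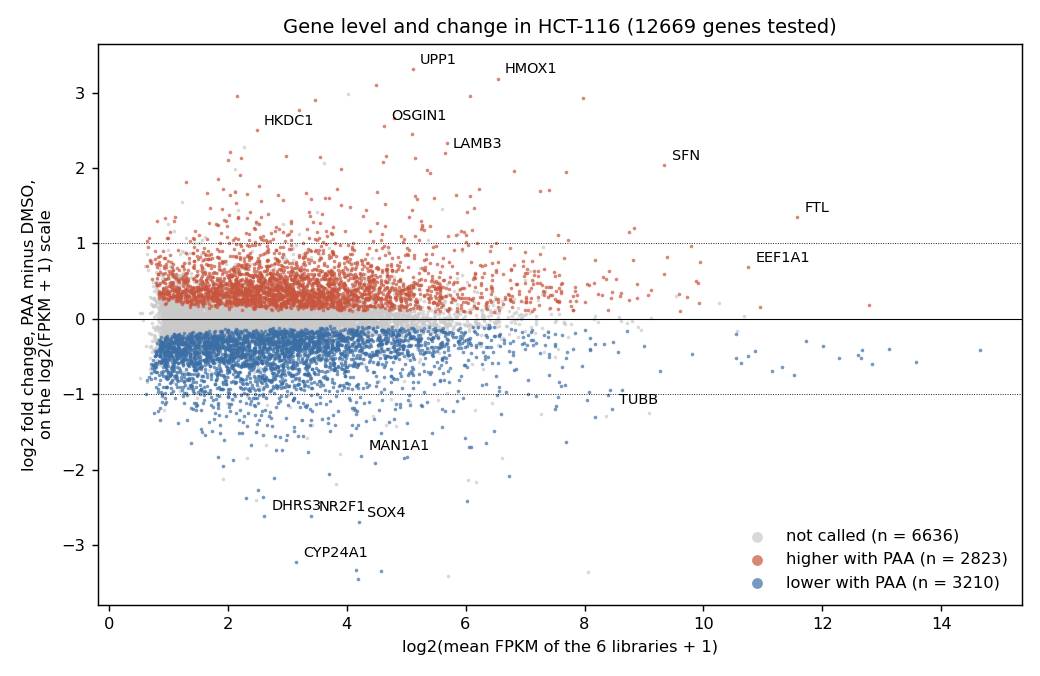
Change of each tested gene (log2 fold change, PAA minus DMSO, on the log2(FPKM + 1) scale) against its level (log2 of mean FPKM + 1), with called genes in red (2823 higher) and blue (3210 lower). Dotted lines mark a fold of 2, passed by 402 called genes, and labelled genes are described in the text.

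The largest rises, taken among called genes whose groups did not overlap, were in genes of several roles. HMOX1, heme oxygenase 1, which breaks down heme, and UPP1, uridine phosphorylase 1, lay near the top, at 166 ± 4.6 and 61.9 ± 1.3 with PAA against 17.4 ± 0.57 and 5.38 ± 0.49 with DMSO. OSGIN1, an oxidative stress-induced growth inhibitor (chromosome 16, 83948282 to 83966332, GRCh38), was at 6.19, 5.89 and 6.48 FPKM with vehicle and at 41.6, 40.9 and 41.4 with PAA. The values within a group differed by under 1 FPKM, and the log2 fold change was 2.56 ± 0.042 (SE; limma, adjusted p = 2.40e-06). TXNRD1, thioredoxin reductase 1, was at 62.8, 99.9 and 95 with DMSO and at 325, 328 and 326 with PAA. DMSO 1 was the lowest of the 6 and the PAA libraries were within 4 FPKM of each other. AKR1B10, an aldo-keto reductase that reduces aldehydes, was at 0.281, 0.637 and 0.635 and rose to 5.06, 5.15 and 6.37, a low level in both groups. CYP4F3, a cytochrome P450 that inactivates leukotriene B4, was at 0.334, 0.561 and 0.504 and at 5.53, 6.14 and 5.69. It lies on chromosome 19 among related CYP4F genes, so reads may be shared.

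Further large rises were seen in SESN2, NIBAN1, LURAP1L and HKDC1, which form no list. SESN2, sestrin 2, a sensor of leucine that restrains the growth kinase mTORC1 (chromosome 1, 28259527 to 28282491), was at 8.9, 9.61 and 10.2 with DMSO and at 56.2, 57.6 and 57 with PAA. All PAA values lay above 5 times the highest DMSO value, and the log2 fold change was 2.45 ± 0.053 (limma, adjusted p = 3.99e-06). NIBAN1, a stress protein that modulates translation, went from 1.88 ± 0.029 to 11.9 ± 0.56, and LURAP1L, an adaptor-like protein, from 0.738 ± 0.11 to 6.65 ± 0.51. HKDC1, a hexokinase-related enzyme at the first step of glycolysis (chromosome 10, 69220303 to 69267559), was at 0.618, 0.673 and 0.752 and at 8.51, 8.51 and 8.56. Its PAA values were nearly identical, and it went from a level under the FPKM limit of 1 to a clear one, with a log2 fold change of 2.50 ± 0.049 (adjusted p = 3.01e-06).

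Of the central regulators, ATF4 itself was at 49.2, 40.4 and 41.3 with DMSO and at 257, 136 and 146 with PAA. PAA 1 stood far above the other PAA libraries (log2 fold change 1.96 ± 0.25, limma, adjusted p = 0.00162). Every PAA value was above every DMSO value, which the choice of the largest rises required. The ATF4 transcripts that GENCODE 29 places sum to only 1.97, 3.12 and 3.70 with PAA and to 4.34, 34.6 and 22.2 with DMSO. Their sum is thus below the gene value and turns the direction, to -2.09 with no call. Transcripts that this annotation does not place hold 0.900% to 1.22% of transcript FPKM per library, and 226 tested genes exceed their placed sum by over 5% and 0.05 FPKM in at least 1 library. In other genes the placed sum was the larger. TXNRD1 with PAA had sums of 890, 882 and 884 against gene values of 325, 328 and 326. PDP1 and LASP1, described below, also had sums above their gene values, and in all of these both measures changed in the same direction. JUN, a subunit of the AP-1 transcription factor, rose from 8.32 ± 0.43 to 38.3 ± 0.75, and DDIT3, a factor of stress-induced cell death that ATF4 switches on, was at 48.8, 50.8 and 41.8 with PAA.

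The promoters of PPP1R15A, the phosphatase subunit that reverses eIF2α phosphorylation, and of CHAC1, which degrades glutathione, are shown because they are rising genes whose promoter holds a motif of the stress factors. RefSeq promoters (GRCh38.p14, 250 bases before to 50 after the annotated start) were found for 36 of the 50 genes with the largest changes, 19 that rose and 17 that fell. Capitals mark the motif on either strand, the antioxidant response element TGACNNNGC in PPP1R15A (chr19:48872171-48872470, plus strand) and the C/EBP-ATF response element TGATGNAA in CHAC1 (chr15:40953221-40953520, plus strand), each searched on both strands.
PPP1R15A: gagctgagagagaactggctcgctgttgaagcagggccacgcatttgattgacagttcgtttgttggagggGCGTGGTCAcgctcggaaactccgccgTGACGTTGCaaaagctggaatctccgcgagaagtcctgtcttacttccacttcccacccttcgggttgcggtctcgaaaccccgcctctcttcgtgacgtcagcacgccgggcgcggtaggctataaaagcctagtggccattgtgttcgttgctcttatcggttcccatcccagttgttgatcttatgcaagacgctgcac
CHAC1: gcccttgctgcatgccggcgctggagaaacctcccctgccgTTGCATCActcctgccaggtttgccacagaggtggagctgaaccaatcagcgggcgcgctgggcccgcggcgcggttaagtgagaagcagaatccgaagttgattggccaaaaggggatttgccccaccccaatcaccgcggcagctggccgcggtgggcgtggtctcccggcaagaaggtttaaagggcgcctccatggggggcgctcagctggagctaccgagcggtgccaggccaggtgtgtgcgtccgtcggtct
PPP1R15A was at 14.4, 13.9 and 14.9 with DMSO and at 117, 118 and 119 with PAA, and CHAC1 at 8.37, 7.75 and 8.59 and 39.9, 39.6 and 41.1. Neither gene's groups came near each other. Among the 100 largest rises with a promoter, 5 (5.0%) held the C/EBP-ATF element, against 1 (1.0%) of the 100 largest falls and 1.53% of all 9078 promoters of tested genes. The antioxidant element was in 19 (19.0%), 13 (13.0%) and 15.3%, and the E-box CACGTG in 8.0%, 9.0% and 10.5%. The E2F motif, TTTGGCGC or TTTCGCGC, was in 0 of the rises, in 5 of the falls and in 2.3% of all, and the TCF/LEF motif CTTTGAT in 1, 2 and 1.33%. Of the 50 genes with the largest changes, 19 rises and 17 falls had a promoter. The antioxidant element was in 4 of those rises and 2 of those falls, and the C/EBP-ATF element in 1 and 0. Most of the largest rises thus held neither motif in this window. A match is a description of these letters in a short window, not a bound site.

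Several rises concerned the cell surface, the matrix and growth control. LAMB3, the β3 chain of laminin-332 in the basement membrane of epithelia (chromosome 1, 209614870 to 209652466), was at 17, 16.6 and 17.6 with DMSO and at 80.9, 84.6 and 80.3 with PAA. The groups were far apart, with a log2 fold change of 2.20 ± 0.039 (limma, adjusted p = 2.44e-06). SFN, the epithelial protein 14-3-3σ that holds cells in G2 (chromosome 1, 26863138 to 26864457), was at 247, 249 and 266 and at 1043, 1043 and 1041. It is the most abundant of these genes, and its PAA values lay within 3 FPKM of each other. BTG1, an antiproliferative protein that recruits the deadenylation machinery, rose from 5.01 ± 0.22 to 22.9 ± 0.89, and SLFN5, a member of the Schlafen family, from 3.31 ± 0.036 to 18.1 ± 0.38.

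The largest falls, chosen in the same way as the rises, included some genes of retinoid and vitamin D handling. DHRS3, a reductase that turns retinaldehyde back into retinol (chromosome 1, 12567910 to 12617731), was at 9.21, 9.09 and 10.2 with DMSO and at 0.722, 0.702 and 0.733 with PAA. Every PAA library was below 1 FPKM, and the log2 fold change was -2.61 ± 0.057 (limma, adjusted p = 3.99e-06). CRABP2, which carries retinoic acid to the nucleus, was at 108, 115 and 88.8 and at 32.9, 26.6 and 34.4. ALDH1A3, which makes retinoic acid (chromosome 15, 100877714 to 100916626), was at 109, 113 and 106 and at 19.3, 20.1 and 19.6. The groups of both genes were apart by more than 2 times. CYP24A1, which inactivates vitamin D, was at 0.742, 0.640 and 0.771 with PAA. RARG, a receptor for retinoic acid, fell from 8.82 ± 0.098 to 3.55 ± 0.060, and the orphan receptors NR2F1 and NR2F2 from 17.3 ± 0.33 to 1.98 ± 0.081 and from 24.2 ± 0.20 to 9.88 ± 0.57. These genes were grouped here by their roles after their values were seen, and the group was not tested as a list.

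Genes of signalling, adhesion and trafficking were also among the largest falls. PDE4B, a phosphodiesterase that degrades cyclic AMP, was at 10.5, 10.2 and 9.89 and at 1.57, 1.71 and 1.48. VSNL1, a calcium sensor best known in neurons, was at 8.45, 6.91 and 6.5 and at 0.422, 0.604 and 0.775. In both genes the PAA values lay well below the DMSO values. TNS4, a tensin that links integrins to the cytoskeleton, fell from 34.4 ± 1.1 to 8.42 ± 0.41, and LASP1, an actin-binding protein of focal adhesions, from 49.6 ± 2.3 to 13.2 ± 0.21. MAN1A1, a Golgi mannosidase of N-glycan trimming (chromosome 6, 119177209 to 119349761), fell from 28.5 ± 0.71 to 7.38 ± 0.17, with a log2 fold change of -1.82 ± 0.037 (limma, adjusted p = 3.66e-06). HAS3, a synthase of hyaluronan, was at 4.7, 1.28 and 2.05 with PAA, all below the lowest DMSO value of 9.76. RAB3A, a GTPase of regulated secretion, fell from 5.7 ± 0.79 to 0.829 ± 0.27, and TMSB15A, a thymosin that binds actin monomers, from 9.75 ± 0.85 to 2.26 ± 0.64. MTUS1, a microtubule-associated tumour suppressor candidate, fell from 14.7 ± 0.49 to 3.62 ± 0.16.

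**Figure D3:**
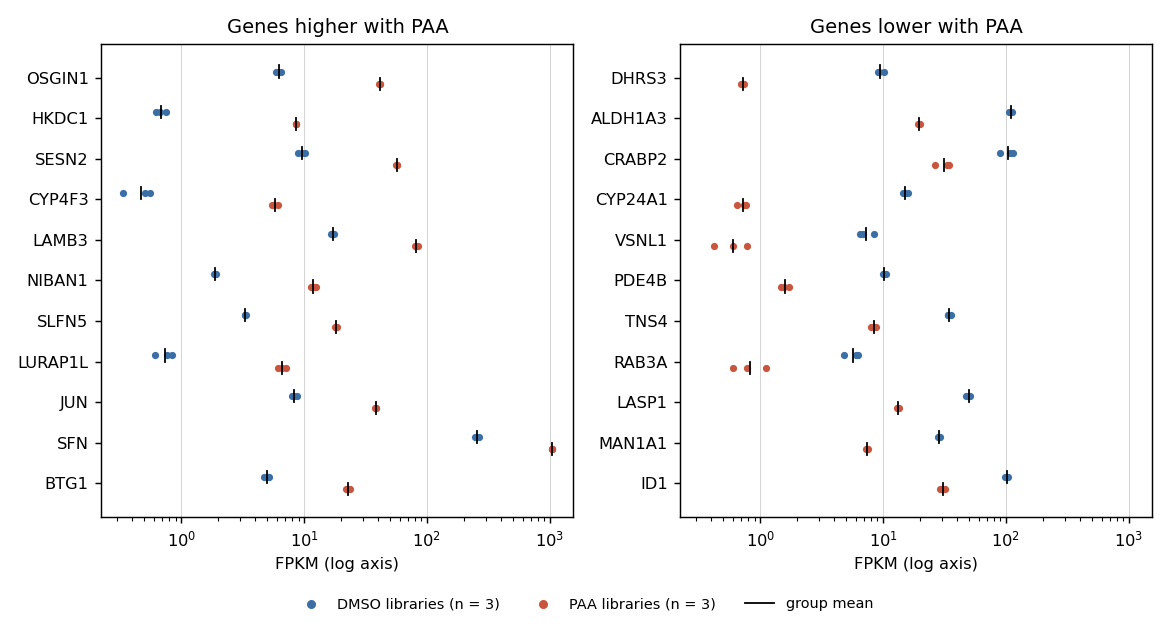
FPKM on a log axis of 11 genes that rose and 11 that fell, with blue points for the 3 DMSO libraries, red points for the 3 PAA libraries and a black tick at each group mean. All were chosen among genes whose groups do not overlap. SFN reaches 1042 with PAA and CYP24A1 drops to 0.718.

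Of the 50 genes with the largest changes, 45 kept their call and direction under every alternative, and 5 are less certain. TNFRSF6B, a decoy receptor for Fas ligand whose gene begins just downstream of RTEL1, was at 38.9, 35.7 and 47.6 with DMSO and at 0.000171, 7.81 and 6.81 with PAA. PAA 1 was near 0 and the other PAA libraries were not, and the call was lost without both libraries that carry pancreatic transcripts (limma, adjusted p = 0.0747) and without any 1 DMSO library (0.0536 to 0.0646). SNORA44 and SNORA77B are short nucleolar RNAs, and FPKM per length is uncertain for such short entries. SNORA44 was at 0.00744, 5.05 and 0.00344 with PAA, and SNORA77B at 2.62, 0.0931 and 2.55. Each had 1 PAA library apart from the other 2. PTGES3L-AARSD1 is a readthrough transcript that shares its exons with 2 genes, and it was at 10.8, 8.11 and 5.16 and at 3.74, 0.0379 and 0.205. SNORA44 and SNORA77B lost their call without any 1 DMSO library, SNORA44 also without PAA 1 or PAA 3. PTGES3L-AARSD1 lost it without DMSO 1, DMSO 2, PAA 2 or PAA 3 and without the pair (adjusted p = 0.109). The remaining gene is ATF4, as described above. PDP1, the phosphatase that activates pyruvate dehydrogenase, kept its call but was at 22.0, 53.2 and 50.8 with PAA against 169, 171 and 165 with DMSO. PAA 1 again stood apart, and all PAA values were below those with DMSO, as the choice of the largest falls required.

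In absolute terms, iron storage and translation genes were among those that gained the most FPKM. FTL, the ferritin light chain, was at 1679, 1718 and 1766 with DMSO and at 4381, 4421 and 4332 with PAA, a difference of 2657 FPKM between the means. FTH1, the heavy chain, was at 592, 612 and 578 and 1246, 951 and 1308, so PAA 2 was the lowest of its group. EEF1A1 and EEF2, the factors that deliver and move tRNAs on the ribosome, went from 1317 ± 31.5 to 2120.2 ± 34.3 and from 780.3 ± 24.9 to 1102 ± 4.6. The EEF2 change, 0.50 on the log2 scale, was 0.05 with quantile normalization and no call. SLC7A5, an importer of large neutral amino acids, rose from 266 ± 11 to 590.0 ± 3.0. Large losses outside the mitochondrial genome and its nuclear copies MTATP6P1 and MTND2P28 included those in TUBB, from 488 ± 6.1 to 212 ± 3.5, in TUBA1B, from 454 ± 27.2 to 235 ± 6.5, and in PTMA, prothymosin α, from 450.2 ± 78 to 223 ± 31.1. PTMAP5, a processed copy of PTMA, and the microRNA entry MIR1244-2 fell too. MIR1244-1, of the same microRNA family, lies within PTMA, so reads may be shared. HSP90AB1, the constitutive cytosolic chaperone, was lower by a small step, from 1606 ± 19.2 to 1392 ± 13.1, and not called with quantile normalization (-0.01).

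Gene families were then read against the background of 22.3% higher and 25.3% lower over all genes tested. Axon guidance cues and receptors, which also steer epithelial cells, had 28 of 40 tested members lower and 5 higher (median log2 fold change -0.39, against -0.01 over all genes). By role, 12 of 14 ephrins and Eph receptors, 12 of 20 semaphorins and plexins and 4 of 6 netrins, slits and their receptors were lower. SEMA6B, a transmembrane semaphorin, was at 33.4, 33.3 and 36.1 with DMSO and at 11.4, 11.7 and 10.9 with PAA. The groups were apart by about 3 times and the log2 fold change was -1.51 ± 0.047 (limma, adjusted p = 1.39e-05). EFNA3 and EFNB2, ephrin ligands, fell from 10.7 ± 0.69 to 5.41 ± 0.19 and from 18.7 ± 0.69 to 10.7 ± 0.13, and NTN1, netrin 1, from 1.93 ± 0.13 to 0.719 ± 0.047. EPHA2, an Eph receptor abundant in epithelia, went the other way, from 72.4 ± 3.7 to 139 ± 0.80, as did ROBO3, from 1.89 ± 0.045 to 3.9 ± 0.17. The list had 21 to 29 members lower under every scaling, with transcripts summed and without the pair of libraries named above.

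Tubulins had 13 of 20 members lower and 2 higher (median -0.38). TUBB4A, a β-tubulin, fell from 19.3 ± 0.87 to 7.66 ± 0.28, and TUBB4B by 0.51 on the log2 scale. TUBE1, ε-tubulin of centrioles, was at 2.73, 2.8 and 2.92 with DMSO and at 6.89, 7.08 and 6.96 with PAA. TUBE1 and TUBB2A, a β-tubulin that rose by 0.26 on the log2 scale, were the 2 higher members. TUBA1A was at 12.8, 9.93 and 22.6 with DMSO and at 12.8, 7.25 and 6.51 with PAA, so its groups overlapped and it was not called. Of ADAM and MMP proteases and their inhibitors, 11 of 16 were lower and 2 higher (median -0.52). ADAMTS14, a procollagen protease, fell from 5.9 ± 0.13 to 1.68 ± 0.21 and MMP15, a membrane-bound metalloprotease, from 21.8 ± 1.5 to 14.2 ± 0.28. ADAM17, the sheddase of TNF and EGF ligands, was at 3.64, 2.75 and 3.36 and rose to 8.82, 6.94 and 10.1. The inhibitor TIMP1 also rose, by 0.27 on the log2 scale, and TIMP2 fell by 0.54.

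The extracellular matrix list had 14 of 28 members lower and 6 higher (median -0.25), and its laminins went both ways. LAMA3, the α3 chain that pairs with the LAMB3 product, was at a low level and rose from 1.29 ± 0.020 to 1.67 ± 0.15. LAMB1, the β1 chain of other laminins, fell from 7.59 ± 0.094 to 2.72 ± 0.23. Of 13 collagens tested, 7 were lower and none higher, among them COL6A1, from 24.1 ± 0.78 to 9.51 ± 0.49. VCAN, the proteoglycan versican, fell from 9.36 ± 0.18 to 2.52 ± 0.23, and CCN1, a matricellular protein, rose from 2.76 ± 0.31 to 6.93 ± 0.30.

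In TGF-β and BMP signalling, 13 of 30 members were lower and 6 higher, with a median of -0.09 that was 0.01 under a common total. Of 7 ligands, 6 were lower and none higher. BMP4 was at 25.4, 23 and 26.4 with DMSO and at 10.4, 10.7 and 5.36 with PAA. PAA 3 was the lowest library and no PAA value reached the DMSO range. TGFB1 fell from 22.4 ± 0.40 to 11.8 ± 0.40 and BMP7 from 2.86 ± 0.13 to 1.17 ± 0.087. The receptor TGFBR2 fell from 5.34 ± 0.033 to 3.07 ± 0.12, whereas 4 of 6 inhibitors were higher, among them FSTL3, from 12.4 ± 2.0 to 19 ± 0.84, and BAMBI, a decoy receptor, from 3.33 ± 0.63 to 5.09 ± 0.050. Among targets, ID1, ID2 and ID3, which block basic helix-loop-helix factors and are classic BMP targets, fell, ID1 from 101 ± 2.5 to 30.5 ± 1.4, ID2 from 13.3 ± 0.31 to 3.88 ± 0.34 and ID3 from 18 ± 1.8 to 8.32 ± 0.22.

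The Notch pathway had 9 of 23 members lower and 3 higher (median -0.14, and -0.04 under a common total). JAG1, a Notch ligand, fell from 11.4 ± 0.15 to 4.77 ± 0.13, its target HES1, a repressor of secretory fate, from 7.4 ± 0.42 to 3.05 ± 0.45, and LFNG, the glycosyltransferase that tunes ligand choice, from 3.28 ± 0.36 to 0.558 ± 0.15. Of 7 SOX factors, 6 were lower and 1 higher, with SOX4, a developmental factor, going from 31.2 ± 1.4 to 3.96 ± 0.11, while 3 of 11 KLF factors were higher and 2 lower. KLF5, a growth factor-responsive regulator of crypt cells, rose from 20.8 ± 0.34 to 34.8 ± 0.60. Of 10 endodermal and intestinal factors, 5 were lower and 2 higher. ELF3, an epithelial ETS factor, fell from 10.9 ± 0.56 to 2.9 ± 0.21, and CDX2, the regulator of intestinal identity, was at 4.63 ± 0.13 and 4.52 ± 0.43 and not called (adjusted p = 0.727). Of nuclear receptors, 10 of 23 were lower and 4 higher (median -0.17).

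Immediate early genes, which growth and stress kinases switch on within minutes, and the phosphatases that restrain those kinases had calls both ways. Of 12 immediate early genes, 6 were higher and 1 lower, and of 17 dual-specificity phosphatases 7 were higher and 5 lower, with a median of 0.04 that was -0.00 with a common total without mitochondrial genes. DUSP1, which inactivates p38 and JNK kinases, was at 5.49, 5.53 and 5.89 with DMSO and at 21.3, 19.7 and 21.6 with PAA. DUSP5, a nuclear phosphatase of ERK, was at 33.4, 35.1 and 33.6 and at 111, 115 and 117. In both genes the groups were more than 3 times apart. FOSL1, a partner of JUN in AP-1, rose from 39.7 ± 0.61 to 87 ± 5.2. Of 14 ETS factors, 2 were higher and 5 lower. ETS1 rose from 1.63 ± 0.20 to 7.93 ± 0.24, whereas ETV1 fell from 3.07 ± 0.39 to 0.769 ± 0.17. DUSP6, a cytoplasmic phosphatase of ERK, was at 30.7, 38.7 and 39.5 with DMSO and at 18.8, 25.3 and 23.8 with PAA. DUSP6 was lower with no overlap between groups (limma, adjusted p = 0.0115, and 0.0564 without DMSO 3 and PAA 2). Of 12 EGF family genes, 2 were higher and 3 lower. Among its ligands, HBEGF rose from 3.86 ± 0.44 to 10.9 ± 0.45 and EREG, epiregulin, fell from 129 ± 3.7 to 92.3 ± 0.62.

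Epithelial structure genes were split. Of 12 keratins, 5 were higher and 3 lower. The 3 with the largest rises were at low levels, KRT34 at 1.58, 1.14 and 1.82 with PAA, KRT81 at 1.17, 0.912 and 1.09 and KRT16 at 1.37, 0.968 and 1.13. With PAA these values lie near the filter limit of 1 FPKM, so such genes may have been tested only because they rose. The count of higher keratins is therefore not read as a result about the family. KRT19 and KRT18 fell by 0.31 and 0.23 on the log2 scale, the latter with no call under a common total. Of 8 cornified envelope and squamous genes tested, 3 were higher and 5 lower (median -0.59). SPRR2D, which is cross-linked into the envelope of keratinocytes, was at 0, 0 and 0.0427 with DMSO and at 6.69, 6.08 and 8.02 with PAA, whereas KLK6, a kallikrein protease, fell from 27.7 ± 1.4 to 10.3 ± 0.92. SPRR2D has close paralogs, so its reads may be shared. Of 14 claudins and other tight junction genes, 3 were higher and 4 lower. OCLN, occludin, rose from 2.95 ± 0.059 to 7.17 ± 0.88, and TJP3, a scaffold of the junction, fell from 8.19 ± 0.41 to 2.48 ± 0.40. CDH1, E-cadherin, was at 8.94, 6.74 and 6.78 with DMSO and at 12, 12.4 and 12.7 with PAA, above the DMSO range in every library.

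Among transporters and channels more genes were lower than higher. Of 22 ABC transporters, 12 were lower and 3 higher (median -0.17), with ABCA2, a lipid transporter of lysosomes, going from 12.2 ± 0.46 to 6.11 ± 0.32. Of 46 ion channels, 22 were lower and 10 higher (median -0.19). KCNH3, a voltage-gated potassium channel, fell from 10.2 ± 0.22 to 3.54 ± 0.69. Of 172 solute carriers, 58 were lower and 43 higher, with a median of -0.01 that was 0.08 under a common total, where 54 were higher and 48 lower. SLC25A10, the mitochondrial dicarboxylate carrier, fell from 23.5 ± 2.9 to 9.61 ± 1.5. Of 17 zinc transporters, 4 were higher and 5 lower, near the background.

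Of 32 Mediator subunits, which link transcription factors to RNA polymerase II, 11 were higher, 3 lower and 18 not called (median 0.10). MED10 was at 16.7, 16.9 and 16.6 with DMSO and at 34, 33.5 and 32.4 with PAA, and MED8 went from 8.41 ± 0.37 to 16.6 ± 1.3. Neither group of MED10 varied by more than 2 FPKM. Of 25 nucleoporins, 11 were lower and 2 higher, with a median of -0.11 that was -0.00 under a common total and 6 lower there. NUP210, of the pore membrane ring, fell from 34.2 ± 1.7 to 19.2 ± 0.35. Of 17 nonsense-mediated decay factors 6 were higher and 1 lower (median 0.12), of 61 RNF ubiquitin ligases 19 were higher and 10 lower (median 0.13), and of 36 DNAJ cochaperones 12 were higher and 4 lower (median 0.06). Among 58 histone lysine enzymes, 17 were higher and 9 lower. KDM4A, a demethylase of histone H3, rose from 13.5 ± 0.30 to 22.9 ± 0.39, and HDAC1, a deacetylase, fell from 60.5 ± 0.11 to 36.5 ± 2.8. Of 49 F-box proteins, 15 were higher and 7 lower (median -0.03). FBXO30, an F-box substrate receptor of SCF ubiquitin ligases, rose from 4.17 ± 0.27 to 9.54 ± 0.20.

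Secreted signals and the circadian clock had calls in both directions. Of 15 cytokine and chemokine ligands 6 were higher and 4 lower. CXCL3, a neutrophil chemokine, was at 0.304, 0.263 and 0.170 with DMSO and at 2.38, 1.99 and 1.82 with PAA. It crossed the limit of 1 FPKM and was tested only because of its PAA values. LIF, a cytokine of the interleukin-6 family, fell from 31.4 ± 1.9 to 16 ± 0.11. Of 15 clock genes, 7 were lower and 4 higher. BMAL2, a partner of CLOCK, fell from 4.4 ± 0.20 to 1.66 ± 0.058, and DBP, a clock output factor, from 2.33 ± 0.15 to 0.809 ± 0.013, while NFIL3, which opposes DBP on shared sites, rose from 11.1 ± 0.33 to 21.9 ± 0.30. The libraries were taken at a single time.

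Other families went both ways, some near the background of 22.3% higher and 25.3% lower and some further from it. Of 46 RAB GTPases 11 were higher and 17 lower, of 25 kinesins 8 and 6, of 44 ubiquitin-specific proteases 13 and 12, of 39 TRIM ligases 7 and 10, and of 25 RNA decay factors 5 and 5. RAB26 fell from 3.59 ± 0.68 to 0.573 ± 0.11. Of 45 glycosyltransferases and mucins 16 were lower and 6 higher. Among them, 7 of 12 enzymes that start O-GalNAc glycans were lower and 1 higher, a share lower above the background. GALNT18 fell from 7.65 ± 0.58 to 3.43 ± 0.11. Phosphatidylinositol kinases had 6 of 20 higher and 10 lower and the phosphatases 6 of 22 higher and 2 lower.

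**Figure D4:**
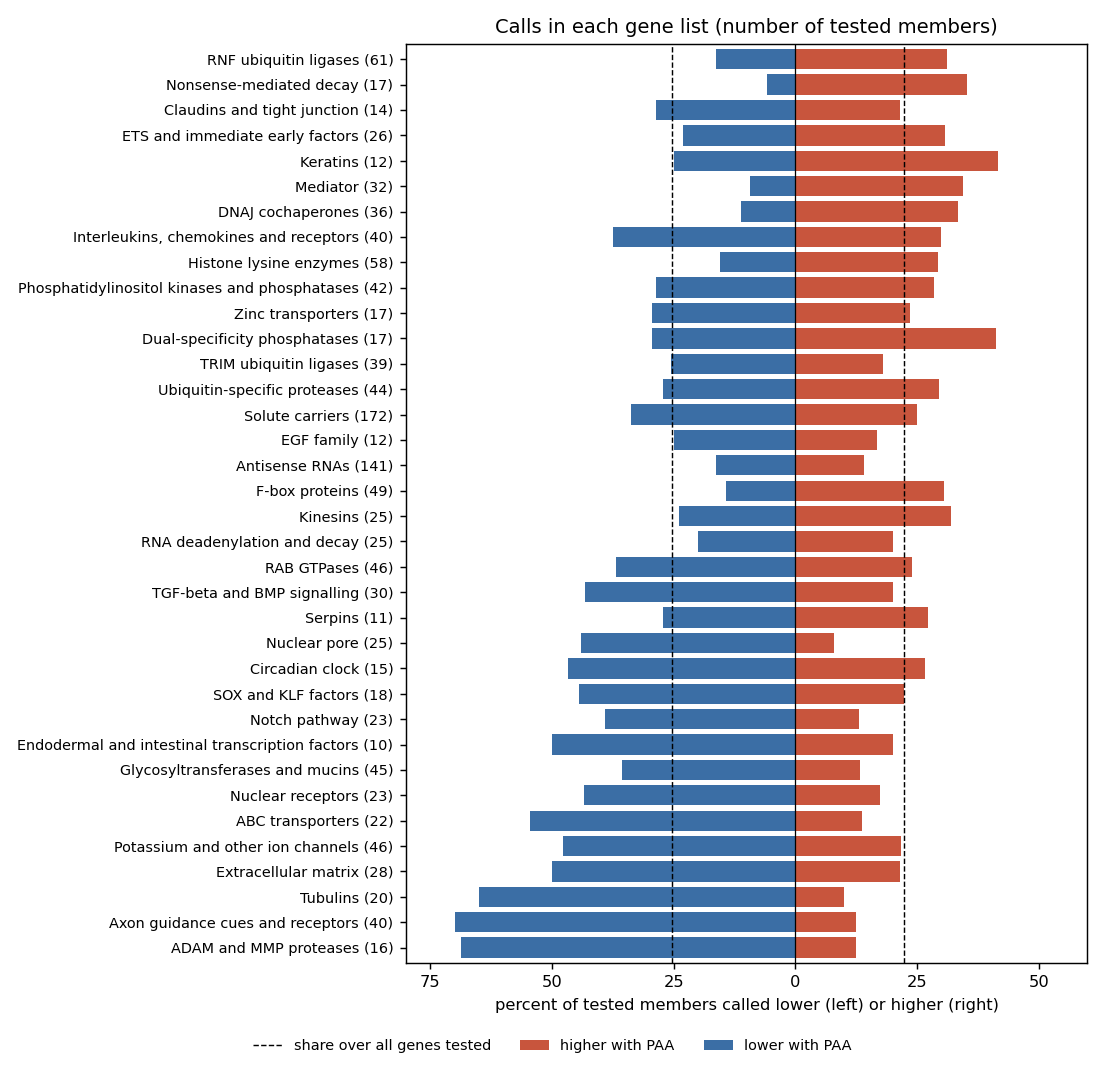
Percent of tested members called higher (red, to the right) or lower (blue, to the left) with PAA in each gene list shown, all with at least 10 tested members, whose number is in brackets, ordered by median change. Dashed lines mark the shares over all genes, 22.3% higher and 25.3% lower; axon guidance genes have 28 of 40 members lower.

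Some abundant and some stress-linked genes stayed within a narrow interval. The 95% interval of the log2 fold change lay within -0.2 and 0.2 for 1160 genes. The most abundant of them included PFN1, the actin monomer binder profilin, at 551 ± 11.6 with DMSO and 557 ± 6.6 with PAA (0.02 on the log2 scale, -0.17 with quantile normalization). It also included HSPA8, the constitutive Hsp70, at 379.7 ± 25.1 and 385 ± 20.6, and NPM1, nucleophosmin, at 303 ± 8.7 and 295 ± 10.4. GDF15, a secreted stress cytokine that ATF4 and p53 can induce, was at 225, 213 and 229 with DMSO and at 209, 216 and 213 with PAA. Its groups overlapped, with an interval of -0.15 to 0.03, and it was called lower, at -0.12, with a common total without mitochondrial genes. PRDX1, peroxiredoxin 1, an NRF2 target, was called at 0.11, but its sign was negative under quantile normalization (-0.20), so its direction depends on the scaling.

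Some genes varied too much within a group for any comparison. TOMM6, a subunit of the mitochondrial import pore, was at 5.8, 1.01 and 172 with DMSO and at 146, 15.2 and 2.05 with PAA, from near 1 to over 100 in both groups. BLOC1S5-TXNDC5, a readthrough transcript, was at 61, 9.31 and 0.392 with DMSO and 0, 8.45 and 0 with PAA. It was called only without DMSO 3 and PAA 2 (limma, adjusted p = 0.0365). MIR1244-1, the microRNA entry within PTMA, was at 0.143, 662 and 606 and 0.169, 0.152 and 319.9. Values near 0 in single libraries of such overlapping or short entries can be failed estimates. With all 6 libraries, none of the 3 was called.

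Over all genes tested, 22.3% were higher and 25.3% lower, 47.6% in all. By gene type, 10884 protein-coding genes had 2489 higher and 2945 lower (49.9% called). Processed pseudogenes had 150 of 575 higher and 49 lower (34.6% called). Their share higher was near that over all genes, and their share lower was below it. Pseudogenes of any type named for ribosomal proteins, which include some outside those 575, had 64 of 153 higher and 2 lower (median 0.30). The other 433 processed pseudogenes had 88 higher and 47 lower (median 0.07), with a share higher near that over all genes. Pseudogene reads can be shared with the parent genes. Of 22 mitochondrial tRNA genes, 20 were lower and none higher, with a median of -0.88 (90.9% called, against 47.6% over all genes tested). These entries are short, so their FPKM is uncertain. Mitochondrial transcripts as a whole also held a smaller share of FPKM with PAA, as given above. By level, the share of genes called higher went from 12.2% in the lowest of 5 equal bins of mean FPKM to 30.6% in the highest, and the share called lower from 23.4% to 27.9%. Over 5 bins of genomic span the share higher was 20.9% to 23.5% and the share lower 20.6% to 28.9%.

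The second question was whether PAA changed which transcripts a gene used. The share of each transcript in the summed FPKM of its gene was tested for 28300 transcripts of 10552 genes. Only 38 transcripts in 31 genes (0.134%) were called at an adjusted p of 0.05 and a shift of at least 15 percentage points, while 2216 had an unadjusted p under 0.05. A shift of that size without overlap between the groups was seen for 1603 transcripts (5.66%). No call remained when any 1 library was left out, nor without DMSO 3 and PAA 2. The calls are therefore given as values by library. Of 7700 genes with a summed FPKM of at least 5 in both groups, 55 (0.714%) had one leading transcript in all DMSO libraries and another in all PAA libraries. Shares are estimates from fragments that several transcripts can explain, and transcripts that differ in few bases are the hardest to separate.

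ASS1, argininosuccinate synthase of arginine production, had transcript ASS1-203 at 86.5%, 85.2% and 88.3% of its FPKM with DMSO and at 8.12%, 9.54% and 9.07% with PAA. ASS1-201, which has 15 exons against 16 in ASS1-203, took 4.43%, 5.33% and 3.25% with DMSO and 86.9%, 84.3% and 86.3% with PAA. The 2 transcripts exchanged the lead in every library (shift of 81.5 ± 5.55 points in ASS1-201, SE; limma, adjusted p = 0.0323). The FPKM summed over all ASS1 transcripts went from 30.6 to 23.7. IMMT, a scaffold of the inner mitochondrial membrane, went from IMMT-206 at 80.0%, 83.6% and 72.3% to IMMT-204 at 84.2%, 78.9% and 87.4%. Each of these was below 4% in the libraries of the other group. DHRS4L2, a short-chain dehydrogenase, went from DHRS4L2-201 at 78.7%, 72.7% and 72.8% to DHRS4L2-202 at 83.9%, 90.9% and 91.7%. It has closely related neighbours in the DHRS4 cluster, so its reads may be shared.

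TPI1, the glycolytic enzyme triosephosphate isomerase, had TPI1-201 at 91.4%, 91.6% and 93.4% with DMSO and at 27.8%, 28.9% and 26.4% with PAA. TPI1-202 and TPI1-210, which begin further downstream, were listed at 0 in all DMSO libraries and took 36.3%, 34.7% and 39.3% and 31.4%, 32% and 30.6% with PAA. The summed FPKM of TPI1 was 288 with DMSO and 281 with PAA. NACC2, a transcriptional corepressor, had NACC2-201 at 99.5%, 99.1% and 99.6% with DMSO and at 67.2%, 71.5% and 68.9% with PAA. With PAA the rest was NACC2-202, and the leading transcript stayed the same. SMARCA1-203 of the chromatin remodeller SMARCA1 took 32.7%, 27.5% and 34% with DMSO and 89.1%, 85.7% and 93.9% with PAA.

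Shifts went both towards and away from transcripts annotated as not coding for protein. GLG1-213, a nonsense-mediated decay transcript of the Golgi glycoprotein GLG1, was listed at 0 with DMSO and took 47.6%, 49.3% and 53.7% with PAA. STUB1-202, a retained-intron transcript of the ubiquitin ligase CHIP, took 3.12%, 0.181% and 0.316% and 65.2%, 64% and 59.6%. MRC2-205, a retained-intron transcript of the collagen receptor MRC2, went the other way, from 56.6%, 48.8% and 48.5% with DMSO to 0%, 0% and 3.16% with PAA. ITGB4-212, a processed transcript of integrin β4, went from 36.8%, 39.2% and 34.1% to 0.239%, 0% and 0%. CA2-203, a nonsense-mediated decay transcript of carbonic anhydrase 2, took 21.3%, 19.2% and 14.2% and 62.1%, 66.1% and 67.6% and was not called, whereas the coding CA2-201 dropped from 74.5%, 78% and 82.3% to 13%, 16.7% and 18.3% and was. Summed over the nuclear transcripts placed in GENCODE 29, those of nonsense-mediated decay held 3.11% ± 0.036 of their summed FPKM in the vehicle group and 3.37% ± 0.30 in the PAA group (SD, n = 3 each). Every PAA library was above every DMSO library, PAA 3 most, and the exact two-sided permutation test gave p = 0.1, the smallest that 3 against 3 allows. Retained-intron transcripts held 10.1% ± 0.12 and 9.62% ± 0.42 (exact permutation p = 0.2). Protein-coding transcripts held 76.9% ± 0.47 and 77.7% ± 0.083, again with every PAA library above every DMSO library (exact permutation p = 0.1).

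MCM3, a subunit of the replicative helicase, shows how libraries of a group can differ in these estimates. MCM3-205 held 95.8%, 64.8% and 94.6% with DMSO and 3.87%, 3.71% and 21.5% with PAA, and MCM3-207 held 0.710%, 21.3% and 0.820% and 83.8%, 87.5% and 57.1%. The leading transcript changed in every library, but DMSO 2 and PAA 3 lay between the rest, and neither share was called (adjusted p = 0.153 and 0.187). MRPL37, a mitochondrial ribosomal protein, had MRPL37-206 at 83.7%, 51.6% and 54.3% with DMSO and listed at 0 with PAA. It was not called either (adjusted p = 0.160).

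**Figure D5:**
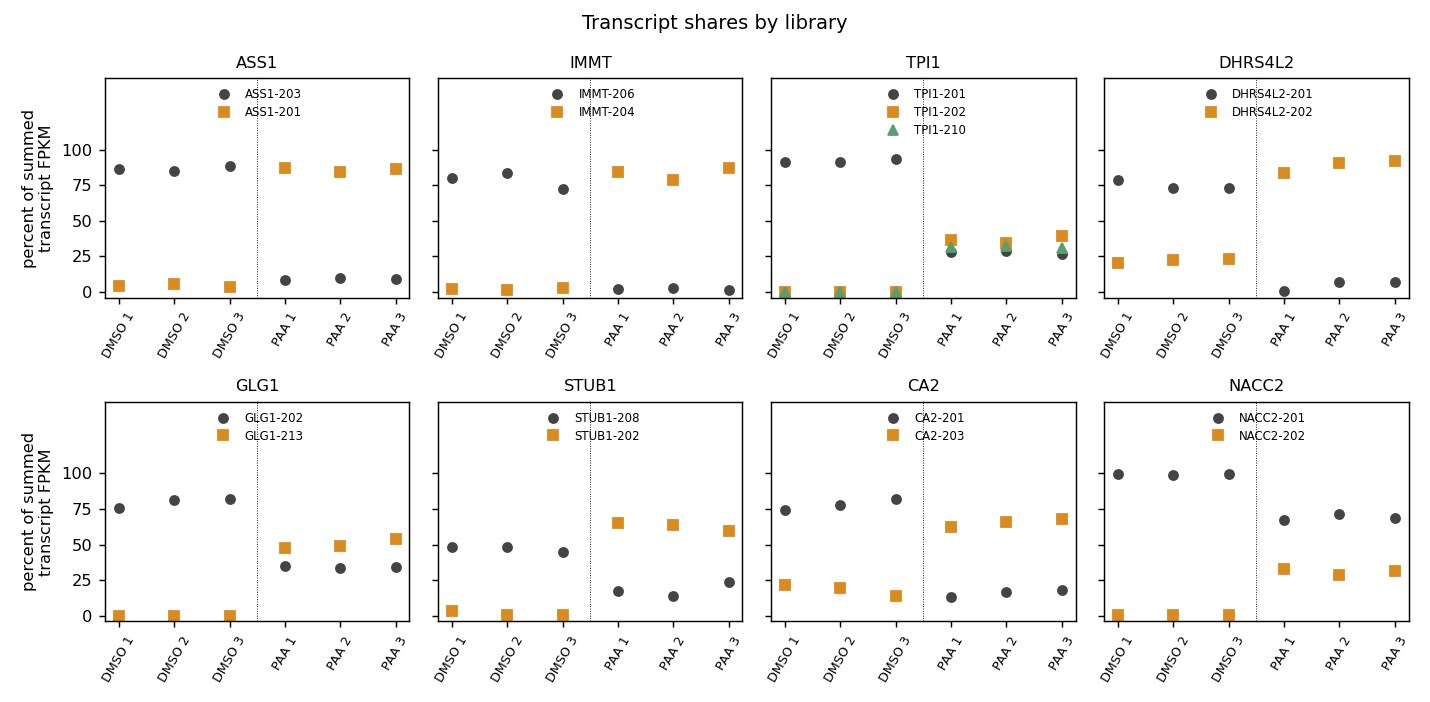
Share of summed transcript FPKM held by the named transcripts of 8 genes in each library, in percent, DMSO to the left of the dotted line and PAA to the right. In ASS1, IMMT, TPI1, DHRS4L2, GLG1, STUB1 and CA2 another transcript leads in every PAA library, and in NACC2 the second transcript grows to about 30%.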

How the data were processed

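The labels' protocols give Trizol extraction and an Illumina library kit for total RNA. Reads were trimmed with cutadapt 1.9, checked with FastQC and set against GRCh38, per the submitters' processing notes. The sources used here name no aligner, quantifier, annotation release or strandedness. The deposited tables give FPKM per gene and per transcript, as the authors computed them. Depth was estimated from FPKM times transcript length in genes with a single transcript. The most frequent small product was taken as a single fragment. The search was kept to a fixed range of products, which bounds the estimate. Of 60612 genes, 60401 had a symbol, and GENCODE 29 (GRCh38) placed 58394 genes and 205306 of 229420 transcripts (89.5%). Promoters came from RefSeq.

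Groups followed the labels. log2(FPKM + 1) of the 6 libraries was fitted with limma 3.58.1 (R 4.3.3; eBayes with a mean-variance trend), with adjustment over 12669 genes at 0.05. Fold changes on this scale understate those of low genes, and a gene's FPKM also moves with the length of the transcripts it uses. Transcripts with a mean share of at least 10% in a group were tested on shares in percent, with a call at 15 points or more. Both procedures were run on simulated normal values, which for shares were unbounded, unlike real shares. Those runs are not used as support for the calls. Exact permutation tests used scipy 1.17.1, and figures matplotlib 3.10.9. Motifs were searched as letters in 300 bases per promoter.

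Named genes are the 25 called rises and 25 called falls of largest log2 fold change with groups that do not overlap and a mean of at least 5 FPKM in the higher group; the 10 rises and 10 falls of largest FPKM difference; in each list up to 4 largest rises, 4 largest falls and 2 members not called; the 20 largest called share changes and up to 10 changes of leading transcript; and the 10 most abundant steady and 10 most variable genes. Genes outside this rule, such as LAMA3, BMP7, TGFB1, TGFBR2, EFNB2, NTN1, MMP15, TIMP2 and TUBB4B, and the pancreatic list were chosen after their values were seen. The members and lists were chosen with earlier results of these data known. Alternatives covered pseudocount, filter, scaling, transcript sums, the variance model, a replicate block, all 11 libraries and leaving out libraries. A few genes and 1 list are not reported here.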

Additional observations from a re-analysis of the deposited data

How the results depend on the processing

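The count of 6033 gene calls stayed within 1.5 times under all alternatives except a mean FPKM of at least 5, which tests fewer genes and gave 3636 calls (1836 higher, 1800 lower) and 248 with a fold of 2 (118 higher, 130 lower). With a pseudocount of 0.1, 831 called genes passed a fold of 2 (321 higher, 510 lower), and with 0.5, 347 lower genes did, since a smaller pseudocount shrinks low genes less. Leaving out 1 library gave 5124 to 5263 gene calls (2376 to 2446 higher, 2727 to 2856 lower) and 404 to 425 with a fold of 2. The replicate block gave 5136 gene calls (2402 higher, 2734 lower) and 0 share calls. The labels do not state that the numbers pair the samples, and pairing was not tested. Deviations from the group mean correlated at 0.07, -0.15 and -0.14 for same-numbered libraries. For DMSO 3 and PAA 2, which share the pancreatic transcripts, the value was 0.23. The 38 share calls were 78 with all 11 libraries in the fit, 62 as log ratios, 4 with a minimum share of 5%, which tests more transcripts, 0 to 0 when 1 library was left out and 0 without DMSO 3 and PAA 2. Of the 50 largest changes, 964 of 991 alternative values kept direction and call, 26 lost the call and 1 reversed. Over all single results, 8312 kept both, 470 lost the call, 92 gained it and 13 reversed. Those were, with transcripts summed, ATF4 (-2.09), BMAL1 (-0.072), RAB7A (-0.26) and RBM8A (0.43); with quantile normalization, PRDX1 (-0.20) and PFN1 (-0.17); with a common total, YBX1 (0.081) and EIF5A (0.11); and with 1 library left out, CLOCK (-0.37 to 0.24, negative without DMSO 3), SLC39A14 (-0.21 to 0.21, negative without DMSO 3, and -0.25 without PAA 2 as well), DUSP3 (-0.74 to 0.35, positive without PAA 1) and MIR3615 (-0.60 to 2.51, negative without DMSO 2). The cause was not tested. Of 6002 called genes with placed transcripts, 4664 were called in the same direction by the transcript sum and 5 in the opposite one. FPKM carries no counts, so counting error could not be given, and changes of genes near 1 FPKM rest on few fragments.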

Other observations

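Of 118 antisense RNAs tested together with the gene they are named for, 19 pairs had both members called, 15 in the same direction and 4 in opposite directions. Over all genes tested 47.6% were called, and of the antisense RNAs tested 30.5%, so the number of pairs called is read as a count only. TUBA1B-AS1 and ALDH1A3-AS1 fell by 1.40 and 1.34 on the log2 scale beside TUBA1B and ALDH1A3. Without a stated strand setting, reads of a gene and its antisense partner cannot be told apart. Of 98 small nucleolar RNAs 13 were lower and 3 higher (16.3% called), and of 71 microRNA entries 9 were lower and 3 higher (16.9% called). Both shares are below the 47.6% called over all genes tested, so these are read as counts only. The unnamed gene ENSG00000264668 was listed at 0 in all PAA libraries and at 1.21, 1.56 and 1.36 FPKM with DMSO. Summed FPKM of 6 plasma proteins of the liver, ALB among them, was 0.564, 4.44 and 0.779 with DMSO and 5.69, 8.04 and 0.274 with PAA, so the libraries that held most were not only those with pancreatic transcripts.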
